A study of Mus musculus with 12 samples.

Results

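The G1 cyclins, their kinases CDK4 and CDK6, and the retinoblastoma family were followed through 4 populations of leukemic stem and progenitor cells in a mouse model of chronic myeloid leukemia (CML). The genes were chosen by name: the D cyclins Ccnd1, Ccnd2 and Ccnd3, the E cyclins Ccne1 and Ccne2, the kinases Cdk4 and Cdk6, and the pocket proteins Rb1, Rbl1 and Rbl2. These are 10 of the 46103 genes in the deposited files. None is listed in numbered copies, and all 10 reached 1 RPKM (reads scaled by transcript length and by the library's total) in at least 3 libraries, so all were tested.

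Bone marrow from 5FU-treated G0M mice on a C57BL/6 background was transduced with a BCR-ABL1 retrovirus. It was transplanted into lethally irradiated wild-type recipients together with marrow cells of non-irradiated C57BL/6 mice. G0M is a fusion of the fluorescent protein mVenus with a p27 mutant that does not inhibit CDKs. It is encoded in the Rosa26 locus and switched on by Vav1-Cre, which acts in blood cells, and it marks cells in G0. BCR-ABL1+, lineage-negative, Sca1+ c-Kit+ cells (LSK) were sorted from bone marrow and spleen by G0M and CD27. Every population described here, controls included, was thus BCR-ABL1+. G0M+ CD27+ cells are called DP, and G0M- CD27+ cells SP. DP and SP cells came from vehicle-treated mice. IMDP and IMSP cells passed the same gates in mice on imatinib, which blocks the ABL kinase, at 40 mg/kg once a day from day 10 after transplantation. The mice of the study were young adult females. Each of the 4 groups has 3 libraries of 100 sorted cells. The labels do not say which animals went into which library, so the p-values measure the spread between these libraries, which may be partly technical. Because the gate reads a cell cycle reporter, the G0M+ and G0M- populations were separated by cell cycle state before any gene was measured.

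D cyclins are made in response to growth signals and bind CDK4 and CDK6. The active kinases phosphorylate the pocket proteins RB, p107 and p130, which otherwise hold E2F transcription factors in check, and released E2F switches on the E cyclins and the genes of DNA replication. CDK2 with cyclin E then carries the phosphorylation further and commits the cell to S phase. Blood cells use mainly cyclins D2 and D3, and CDK6 has a known role in the exit of blood stem cells from rest. BCR-ABL1 signals into this pathway and keeps CML cells dividing.

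RefSeq promoter windows of 250 bases before the start (GRCm38.p6) were at hand for 6 of the 10 genes: Rbl1, Cdk4, Cdk6, Ccne1, Rbl2 and Ccnd3. Ccnd1, Ccnd2, Ccne2 and Rb1 were not matched. The windows of the 3 genes that differed between G0M+ and G0M- cells over both treatments are printed 5′ to 3′ on the gene's strand. They are Rbl1 (chr2:157204535-157204784, minus strand), Cdk4 (chr10:127063285-127063534, plus strand) and Ccne1 (chr7:38107491-38107740, minus strand). Capitals mark matches to an E2F motif (TTTCCCGC, TTTCGCGC, TTTGCCGC or TTTGGCGC) or to the E-box CACGTG, the motif that MYC binds, on either strand.
Rbl1: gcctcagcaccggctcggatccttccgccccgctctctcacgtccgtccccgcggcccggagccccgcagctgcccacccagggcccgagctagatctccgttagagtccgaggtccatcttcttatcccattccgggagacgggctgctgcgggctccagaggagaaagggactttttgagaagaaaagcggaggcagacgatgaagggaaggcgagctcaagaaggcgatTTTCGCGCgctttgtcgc
Cdk4: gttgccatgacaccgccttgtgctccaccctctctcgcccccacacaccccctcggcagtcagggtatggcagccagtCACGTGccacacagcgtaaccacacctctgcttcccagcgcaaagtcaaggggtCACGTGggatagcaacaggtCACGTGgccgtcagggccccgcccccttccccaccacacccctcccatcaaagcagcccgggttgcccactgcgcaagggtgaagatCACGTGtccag
Ccne1: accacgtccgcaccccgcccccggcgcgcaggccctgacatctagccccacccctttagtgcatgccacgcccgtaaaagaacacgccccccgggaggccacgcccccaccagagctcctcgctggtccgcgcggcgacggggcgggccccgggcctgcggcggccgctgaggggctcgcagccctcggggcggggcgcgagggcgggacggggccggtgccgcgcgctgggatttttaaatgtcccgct
The Rbl1 window held TTTCGCGC 18 bases before the start. An E2F motif was found in 1.86% of all 32851 RefSeq windows of this length, and in 3.45% of the 9939 windows of genes tested. The Cdk4 window held CACGTG 4 times, at 172, 118, 98 and 11 bases before the start. An E-box was found in 6.02% of all windows and in 8.51% of those of genes tested, and 4 or more in 7 of the 32851 windows (0.0213%). The Cdk6 window held 1 E-box, at 220 bases before the start. None of the letters searched was found in the windows of Ccne1 or Rbl2, or in either window of Ccnd3. The STAT motif TTCNNNGAA, present in 7.02% of all windows and in 5.91% of those of genes tested, was in none of the members' windows. The motifs do not overlap each other in these windows, and a match of letters is a description of the sequence and not of a bound site.

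Libraries held 11.4 to 20.6 M reads in the total used for RPKM, and the share of it that fell on listed features was lowest in IMDP (25.9% to 31.1%) and highest in IMSP (32.6% to 37.1%), with DP and SP between 30.8% and 34.1%. The gate held in the RNA: Mki67, the proliferation antigen, averaged 14.7 RPKM in DP and 8.16 in IMDP, but 54.2 in SP and 61.1 in IMSP. The defining LSK genes Kit, Ly6a and Cd27 were above 0 in all 12 libraries. Markers of other cells varied between libraries. The summed level of 10 mast cell and basophil genes was 76.3 to 329 RPKM in DP and 14.9 to 194 in IMDP, and 10.5 to 23.0 in SP and 7.92 to 24.4 in IMSP. Of 10 neutrophil genes, it was 70.7 to 1425 in DP and 75.9 to 292 in IMDP, and 388 to 2647 in SP and 520 to 2226 in IMSP. Most of this sum was Mpo, Elane, Ctsg and Prtn3, and Mpo alone reached 1389. The defining neutrophil genes S100a8, S100a9 and Ltf were at most 35.9, 4.39 and 0.862, so the sum does not by itself show mature neutrophils. The summed level of 10 erythroid genes was 218 to 292 in DP, 67.2 to 497 in IMDP, 101 to 182 in SP and 26.0 to 112 in IMSP, and of 8 megakaryocyte genes 32.7 to 147, 24.2 to 138, 15.7 to 52.2 and 10.5 to 71.6. The B cell gene Pax5 was at 0 in all libraries and the T cell gene Cd3e in 10, whereas Cd3d was at 0 in 1. Over the libraries 8 B cell genes summed to 1.76 to 4.35 RPKM, of which Cd79b was 1.27 to 4.00. The 8 T and NK cell genes summed to 28.5 to 266 RPKM, of which Nkg7 was 25.1 to 265. As these are bulk libraries, fewer cells that express a gene and less RNA per cell cannot be told apart.

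The kinases were by far the most abundant members. Over the 12 libraries the median was 90.7 RPKM for Cdk6 and 90.4 for Cdk4, and every library had more of each kinase than any library had of any other member. Ccnd2 (median 28.4 RPKM) and Ccnd3 (22.2) followed, then the pocket proteins Rbl1 (10.8), Rbl2 (5.56) and Rb1 (3.90), and at the low end Ccne1 (2.73), Ccne2 (1.93) and Ccnd1 (1.61). Apart from the step between Cdk4 and Ccnd2, the ranges of neighbours in this order overlapped. In DP cells Cdk6 stood at percentile 98.5 of all genes tested by mean level, Ccnd2 at 94.9, Rb1 at 57.0, Ccne1 at 30.9 and Ccnd1 at 10.4.

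**Figure D1:**
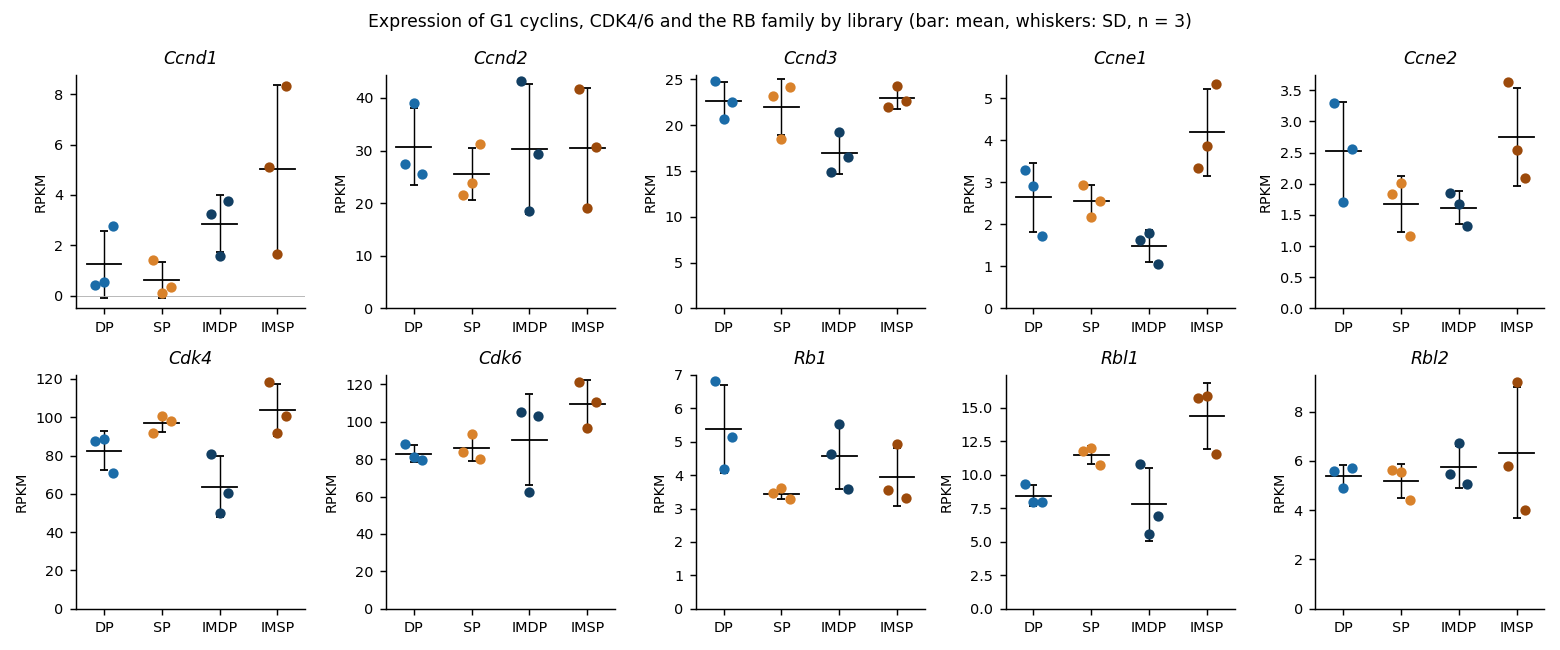
RPKM of the 10 genes in each library (points), with the mean and SD of the 3 libraries of a group. Cdk4, Ccne1 and Rbl1 sit lower in IMDP than in IMSP without overlap, and Ccnd1 varies most within groups.

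Between G0M+ and G0M- cells of the same treatment, members passed the threshold only after imatinib, though the interaction called none. By size, the differences of Ccnd1, Ccnd2 and Rb1 were larger with vehicle. In IMDP against IMSP cells, 4 of the 10 genes were lower and none higher: Ccne1, Rbl1, Cdk4 and Ccnd3. Across all 10072 genes tested, 25.6% passed the same threshold (limma, Benjamini-Hochberg adjusted p of 0.05), and the members' count is read beside that share. The groups did not overlap for 5 of the 10, the 4 named and Ccne2, all lower in IMDP, against 39% of all genes. The median log2 difference was −0.52 over the members and −0.25 over all genes tested, and relative to the latter Ccne1 was at −1.18, Rbl1 at −0.66, Cdk4 at −0.47 and Ccnd3 at −0.19.

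In vehicle-treated mice, DP against SP, none of the 10 passed, where 2.26% of all genes did. Rb1 was the only member at an unadjusted p under 0.05, and limma-voom on reads recovered from the RPKM called none either. The groups did not overlap for 3 members, Rb1 being higher in DP and Rbl1 and Cdk4 lower, against 22.4% of all genes. Taken over both treatments, G0M+ against G0M-, Rbl1, Cdk4 and Ccne1 were lower and none was higher, 3 of 10 against 26.3% of all genes. Only Cdk4 had no overlap between the 6 G0M+ and the 6 G0M- libraries, a pattern held by 8.21% of all genes. Whether the population difference itself changed with imatinib was tested as an interaction. No member passed, as for all genes (0% called). Ccne1, Ccne2 and Ccnd3 were at an unadjusted p under 0.05, each with an adjusted p of 0.534, and limma-voom called none.

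**Figure D2:**
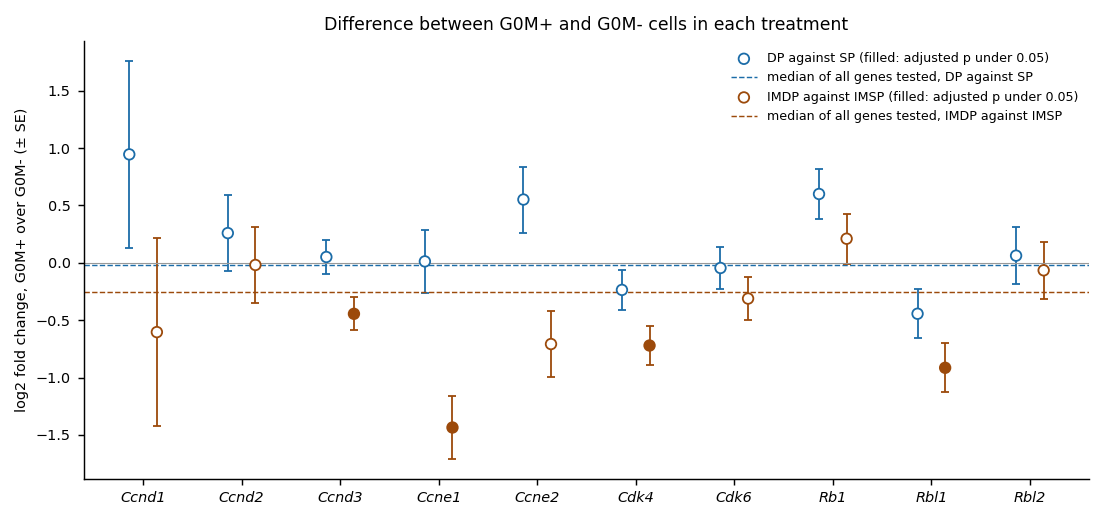
Log2 fold change of G0M+ over G0M- cells (points, with SE) for each gene in vehicle-treated (blue) and imatinib-treated (brown) mice, filled where the adjusted p was under 0.05, and the median of all genes tested (dashed lines). The 4 filled points, Ccnd3, Ccne1, Cdk4 and Rbl1, are all in the imatinib comparison and below its median of −0.25.

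Imatinib against vehicle changed no member past the threshold in either population. In IMDP against DP, 0 of 10 passed beside 0.367% of all genes. Ccnd3, Ccne1 and Cdk4 were at an unadjusted p under 0.05, and limma-voom called none. Ccnd3 alone was without overlap, beside 23.6% of all genes. In IMSP against SP, 0 of 10 passed beside 0% of all genes. Ccnd1, Ccne1 and Ccne2 were at an unadjusted p under 0.05, limma-voom called none, and these 3 and Cdk6 were higher without overlap, beside 13.8% of all genes. Averaged over both populations, none passed, beside 0.854% of all genes. Ccnd1 alone was at an unadjusted p under 0.05, and limma-voom called none. All libraries of imatinib-treated mice carry lower library numbers than those of vehicle-treated mice, so treatment and library order cannot be told apart.

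The D cyclins were mostly Ccnd2 and Ccnd3. Ccnd2 (chr6:127125162-127152193, minus strand, GRCm38), the D cyclin of many blood progenitors, was 27.5, 39.1 and 25.6 RPKM in DP, 21.6, 23.9 and 31.2 in SP, 43.2, 18.5 and 29.3 in IMDP and 41.7, 19.0 and 30.7 in IMSP, each group from replicate 1 to 3. All 4 groups overlapped, and replicate 2 was the lowest and replicate 1 the highest in both imatinib populations. The log2 difference was 0.26 (SE 0.33, adjusted p = 0.745) for DP over SP and −0.02 (SE 0.33, adjusted p = 0.972) for IMDP over IMSP. No alternative called Ccnd2 in any comparison.

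Ccnd3 (chr17:47505051-47599691, plus strand), the D cyclin widely used in lymphoid and myeloid cells, was 24.8, 20.7 and 22.5 RPKM in DP, 23.2, 18.5 and 24.2 in SP, 14.9, 19.3 and 16.5 in IMDP and 21.9, 24.2 and 22.6 in IMSP. The 3 IMDP libraries lay below all DP and IMSP libraries, whereas DP, SP and IMSP overlapped. The mean was 16.9 ± 2.22 (SD, n = 3) in IMDP and 22.9 ± 1.18 in IMSP, a log2 difference of −0.44 (SE 0.14, adjusted p = 0.0416). This call is fragile. With replicate number as a block over all 4 groups, the adjusted p was 0.0527. A block of neighbouring library numbers, which joins the same-numbered imatinib libraries, kept the call. Scaling each library to the same sum brought the difference to −0.02, and the adjusted p ran from 0.0219 to 0.941 over all alternatives. The call was also lost, at an adjusted p of 0.0526 to 0.103, without replicate 2 or 3 of DP, 1 of SP, 1 or 3 of IMDP, or any single IMSP library. Against DP the difference of IMDP was −0.42 (SE 0.14, adjusted p = 0.144).

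Ccnd1 (chr7:144929931-144939925, minus strand), the D cyclin best known from solid tumors, was the scarcest of the 3. It was 0.428, 0.528 and 2.77 RPKM in DP, 1.42, 0.107 and 0.326 in SP, 3.24, 1.58 and 3.76 in IMDP and 5.11, 1.63 and 8.31 in IMSP, from 7 to 434 reads. All libraries of IMSP and of IMDP exceeded all 3 SP libraries, and DP overlapped with every group. Over both populations the difference of imatinib over vehicle was 2.28 (SE 0.58, adjusted p = 0.0789) on the log2(RPKM + 0.1) scale, with means of 3.94 and 0.930 RPKM. Without replicate 3 of DP it passed, at 2.66 (adjusted p = 0.0497), and over all alternatives the adjusted p ran from 0.0497 to 0.187. In G0M- cells alone the difference was 3.05 (SE 0.82, adjusted p = 0.412). Csf1r, the receptor for macrophage colony-stimulating factor and a marker of monocytes, was lowest in replicate 2 of SP (0.504 RPKM) and highest in replicate 3 of IMSP (28.7), the same libraries in which Ccnd1 was lowest and highest. The summed level of 10 macrophage and monocyte genes was 32.9 to 111 in DP and 36.8 to 116 in SP, and with imatinib 55.2 to 84.7 in IMDP and 57.2 to 243 in IMSP, but its genes did not vary together. C1qa, C1qb and C1qc, which mark macrophages, were at 0 in every SP and IMSP library, and Ly6c2 was highest among SP libraries in replicate 2 (89.5 RPKM), where Ccnd1 was lowest. Csf1r was singled out after its values were seen. The part of these cells in the Ccnd1 values was not tested.

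As a share of the summed D cyclin RPKM, Ccnd1 made up 0.813% to 5.45% in DP and 0.251% to 3.07% in SP, and with imatinib 4.01% to 7.58% in IMDP and 3.64% to 13.5% in IMSP. The shares in SP lay below those of both imatinib populations, whereas DP overlapped with all groups. The sum itself was 54.6 ± 4.99 RPKM in DP (SD, n = 3), 48.1 ± 6.83 in SP, 58.4 ± 12.3 in IMSP and 50.1 ± 11.0 in IMDP, and all 4 groups overlapped.

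Of the kinases, Cdk4 was lower in G0M+ cells. Cdk4 (chr10:127063534-127067920, plus strand) was 87.9, 88.8 and 70.9 RPKM in DP, 91.9, 100.4 and 98.0 in SP, 80.9, 49.9 and 60.6 in IMDP and 119, 91.9 and 101 in IMSP. The highest G0M+ library, at 88.8, was just under the lowest G0M- library, at 91.9. Over both treatments the difference was −0.48 (SE 0.12, adjusted p = 0.0160), from a mean of 73.2 RPKM in G0M+ and 100.3 in G0M- cells. It was −0.72 (SE 0.17, adjusted p = 0.0132) in IMDP against IMSP and −0.24 (SE 0.17, adjusted p = 0.577) in DP against SP, and the interaction had an adjusted p of 0.546. The call over both treatments was lost under sum scaling (−0.23, adjusted p = 0.0527), in a range from 0.000744 to 0.0527. The IMDP call was lost without replicate 1 of IMSP (adjusted p = 0.0642), without replicate 2 of IMDP (0.0522), and under median or sum scaling (0.0605 and 0.0849), with a range of 0.000668 to 0.0849 over all alternatives.

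Cdk6 (chr5:3341485-3531008, plus strand), a kinase with a known role in blood and leukemic stem cells, was 88.2, 81.4 and 79.4 RPKM in DP, 83.7, 93.3 and 80.2 in SP, 105, 62.3 and 103 in IMDP and 121, 96.4 and 111 in IMSP. DP, SP and IMDP overlapped, and IMSP lay above SP. The difference was −0.04 (SE 0.19, adjusted p = 0.933) in DP against SP and −0.31 (SE 0.19, adjusted p = 0.228) in IMDP against IMSP. The ratio of Cdk6 to Cdk4, which no library scaling can change, was 0.916 to 1.12 in DP, 0.818 to 0.929 in SP, 1.25 to 1.71 in IMDP and 1.02 to 1.10 in IMSP. IMDP had the highest ratios, above every library of the other groups, and SP lay below both imatinib populations.

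Among the E cyclins, the partners of CDK2 at the entry to S phase, Ccne1 had the largest difference of the members called in IMDP against IMSP. Ccne1 (chr7:38097984-38107534, minus strand) was 3.30, 2.91 and 1.73 RPKM in DP, 2.93, 2.17 and 2.54 in SP, 1.62, 1.79 and 1.06 in IMDP and 3.35, 3.87 and 5.35 in IMSP, from 35 to 141 reads. IMSP stood above every other library and DP overlapped with SP. The mean was 1.49 ± 0.383 (SD, n = 3) in IMDP and 4.19 ± 1.04 in IMSP, a log2 difference of −1.44 (SE 0.27, adjusted p = 0.00482), or 2.71-fold lower in IMDP. All 22 alternatives kept this call, with adjusted p from 0.00299 to 0.0327. In DP against SP the difference was 0.01 (SE 0.27, adjusted p = 0.989), and the interaction was −1.45 (SE 0.39, adjusted p = 0.534). Over both treatments Ccne1 was lower in G0M+ cells, at −0.71 (SE 0.19, adjusted p = 0.0204), a call that median scaling (0.0618) and sum scaling (0.0993) ended, in a range from 0.0132 to 0.0993.

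Ccne2 (chr4:11191351-11204779, plus strand) was 3.29, 1.71 and 2.56 RPKM in DP, 1.84, 2.01 and 1.17 in SP, 1.85, 1.68 and 1.32 in IMDP and 3.63, 2.54 and 2.09 in IMSP, from 54 to 219 reads. The IMDP libraries lay under all IMSP libraries, and DP overlapped with SP. The differences were −0.71 (SE 0.29, adjusted p = 0.0884) after imatinib and 0.55 (SE 0.29, adjusted p = 0.440) with vehicle. Summed, the E cyclins reached 4.29 to 6.59 RPKM in DP, 3.71 to 4.77 in SP, 2.38 to 3.47 in IMDP and 6.40 to 7.44 in IMSP. IMDP was below every other library and only 1 DP library reached into the range of IMSP. The summed D cyclins exceeded the E cyclins by 11.3 to 20.9 times in IMDP, 7.01 to 9.87 times in IMSP, 8.00 to 13.1 times in DP and 9.68 to 14.999 times in SP. DP and SP overlapped with each other and with both imatinib groups.

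Of the pocket proteins, Rbl1 was lower in G0M+ cells. Rbl1 (chr2:157145893-157204534, minus strand), which encodes p107 and is itself an E2F target, was 9.33, 7.98 and 7.98 RPKM in DP, 11.8, 12.0 and 10.7 in SP, 10.8, 5.61 and 6.94 in IMDP and 15.8, 15.9 and 11.5 in IMSP. DP was below SP and IMDP below IMSP without overlap, and replicate 1 of IMDP was the only G0M+ library inside the range of the G0M- libraries. The difference was −0.92 (SE 0.22, adjusted p = 0.0121) in IMDP against IMSP and −0.44 (SE 0.22, adjusted p = 0.406) in DP against SP. Over both treatments it was −0.68 (SE 0.15, adjusted p = 0.00884), from a mean of 8.11 in G0M+ and 12.9 RPKM in G0M- cells, and all 22 alternatives kept that call (adjusted p from 0.000871 to 0.0272). Without replicate 1 of IMSP the adjusted p of the imatinib comparison was 0.0575, the one of its 23 alternatives in which it missed the threshold.

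Rb1 (chr14:73183673-73325822, minus strand), the retinoblastoma tumor suppressor, was 6.82, 4.19 and 5.14 RPKM in DP, 3.46, 3.61 and 3.29 in SP, 4.63, 5.54 and 3.58 in IMDP and 3.57, 4.94 and 3.33 in IMSP. DP lay above SP, where the 3 libraries were close together, and IMDP overlapped with IMSP. The difference was 0.60 (SE 0.22, adjusted p = 0.249) in DP against SP, 0.21 (SE 0.22, adjusted p = 0.492) in IMDP against IMSP and 0.41 (SE 0.15, adjusted p = 0.0676) over both. Rb1 passed over both treatments, higher in G0M+ cells, under median scaling (0.56, adjusted p = 0.0164), sum scaling (0.65, adjusted p = 0.0146), with a block of neighbouring library numbers (0.41, adjusted p = 0.00960) and without replicate 2 of IMSP (adjusted p = 0.0327) or replicate 3 of IMDP (0.0460), in a range from 0.00960 to 0.151.

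Rbl2 (chr8:91070057-91123844, plus strand), which encodes p130, the pocket protein of resting cells, was 5.59, 4.89 and 5.72 RPKM in DP, 5.63, 5.53 and 4.40 in SP, 5.47, 6.73 and 5.07 in IMDP and 5.81, 9.22 and 3.99 in IMSP. All groups overlapped, and IMSP held both the highest and the lowest library. The difference over both treatments was 0.00 (SE 0.18, adjusted p = 0.995), so no difference was detectable between populations that differed widely in Mki67.

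Set against each other within a library, Rbl1 and Rb1 separated the populations completely. The ratio of Rbl1 to Rb1 was 1.37 to 1.91 in DP and 1.01 to 2.34 in IMDP, but 3.25 to 3.41 in SP and 3.21 to 4.42 in IMSP. Every G0M- library exceeded every G0M+ library, and no scaling of a library can move this ratio. Rbl1 made up 44.0% ± 2.41 (SD, n = 3) of the summed pocket protein RPKM in DP and 42.5% ± 10.3 in IMDP, against 57.1% ± 0.909 in SP and 58.9% ± 5.30 in IMSP. Rb1 made up 27.7% ± 3.43 in DP and 25.4% ± 4.90 in IMDP, against 17.2% ± 0.666 in SP and 16.1% ± 1.76 in IMSP. These ratios are given as a description, with no test.

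**Figure D3:**
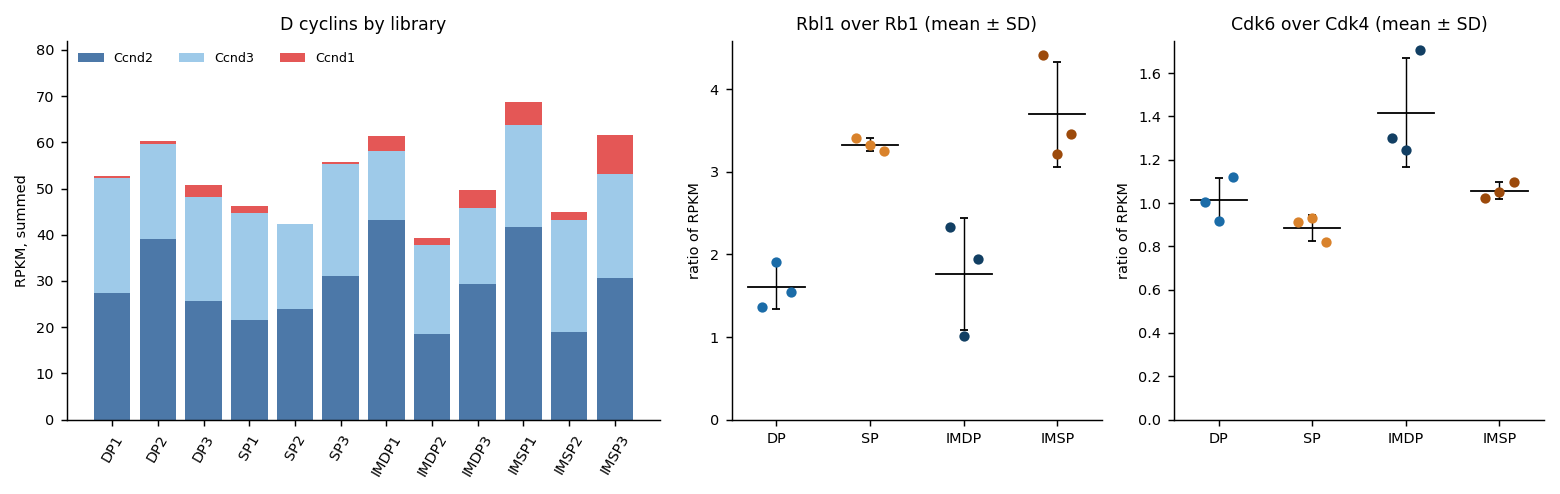
Left, summed RPKM of the 3 D cyclins in each library. Middle and right, the ratios of Rbl1 to Rb1 and of Cdk6 to Cdk4 in each library (points), with the mean and SD of 3 libraries. Rbl1 over Rb1 is at most 2.34 in G0M+ and at least 3.21 in G0M- libraries, and Cdk6 over Cdk4 is highest in IMDP.

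The sample descriptions also carry library numbers, and neighbouring numbers join 1 G0M+ with 1 G0M- library of the same treatment in 6 pairs. Cdk4 and Rbl1 were lower in the G0M+ library in 6 of 6 pairs, and Rb1 was higher in 6 of 6. Over both treatments 26.3% of all genes were called. How many of all genes kept the same direction in every pair was not counted, so the pair counts are a description. The pair differences of Rbl1 ran from −1.48 to −0.36 on the log2 scale, those of Cdk4 from −0.88 to −0.14 and those of Rb1 from 0.10 to 0.90. Ccne2 and Ccnd1 were higher in the G0M+ library in all 3 vehicle pairs and lower in all 3 imatinib pairs, though the interaction called no member. For Ccne2 the pair differences were 0.45 to 0.69 with vehicle and −0.94 to −0.56 with imatinib. The labels do not call these numbers a batch, and whether neighbours share an animal is not given.

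The number of members called in IMDP against IMSP depended on how libraries were scaled. With each library scaled to the same median over genes, 2 members passed in IMDP against IMSP, Ccne1 at −1.17 and Rbl1 at −0.64, and with each scaled to the same sum the same 2 passed. Of all genes called in this comparison, 239 of 2581 were higher in IMDP as deposited, 635 of 1560 under median scaling and 968 of 1586 under sum scaling. Over both treatments 536 of 2648 were higher in G0M+ as deposited, 1116 of 2360 under median scaling and 1493 of 2389 under sum scaling. Ccne1 and Rbl1 thus passed in IMDP against IMSP under all 3 scalings.

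**Figure D4:**
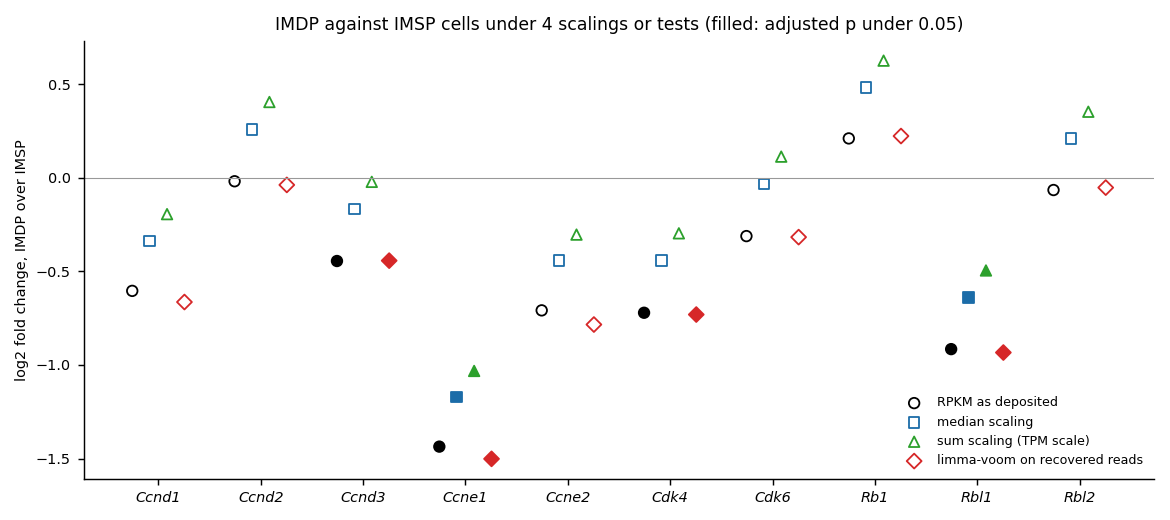
Log2 fold change of IMDP over IMSP cells for each gene from RPKM as deposited (circles), after median scaling (squares), after sum scaling (triangles) and from limma-voom on recovered reads (diamonds), filled where the adjusted p was under 0.05. Ccne1 and Rbl1 are filled in all 4, and Cdk4 and Ccnd3 in 2 of 4.

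The genes around the G1 cyclins were described by 8 lists, the longest of which holds E2F targets. Of its 30 E2F targets of the G1/S transition, 20 were lower and none higher in IMDP against IMSP, beside 25.6% of all genes called. The list median was −0.73 against −0.25 for all genes. Median scaling left 14 lower and sum scaling 9, and without replicate 1 of IMSP 10 were lower. In DP against SP 2 were lower, beside 2.26% of all genes called, with a list median of 0.02. Over both treatments 12 were lower and none higher, beside 26.3% of all genes called, whereas under sum scaling 9 were lower and 4 higher. Tk1, a thymidine kinase of DNA synthesis, was 4.76 ± 0.589 RPKM (SD, n = 3) in IMDP and 17.6 ± 2.78 in IMSP, a difference of −1.86 (adjusted p = 3.95e-05), and in DP against SP it was −0.75 (adjusted p = 0.0229). Rrm1, the large subunit of ribonucleotide reductase, was −1.57 (adjusted p = 0.000350) after imatinib and −0.63 (adjusted p = 0.149) with vehicle, and Rfc4, a clamp loader subunit, −1.22 (adjusted p = 0.00631) and −0.68 (adjusted p = 0.256).

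Next to the E2F targets stand the complexes that read the pocket proteins. Of 7 genes of the MuvB core and its MYB and FOXM1 partners, 5 were lower in IMDP against IMSP and 1 in DP against SP, beside 25.6% and 2.26% of all genes called. The list medians were −1.03 and −0.38, and sum scaling left 3 lower after imatinib. Foxm1, a factor of late cell cycle genes, was 0.756 ± 0.234 RPKM (SD, n = 3) in IMDP and 10.4 ± 1.73 in IMSP, and 1.70 ± 1.21 in DP and 9.28 ± 0.894 in SP, with differences of −3.65 (adjusted p = 0.000153) and −2.58 (adjusted p = 0.00529). Mybl2 was −1.50 (adjusted p = 0.00734), Lin9 −1.03 (adjusted p = 0.0105) and Lin54 −1.10 (adjusted p = 0.00560) after imatinib. The fifth was Rbbp4, a histone-binding subunit, at −0.68 (adjusted p = 0.00986), named after its values were seen. Of 10 E2F and DP factors, 4 were lower in IMDP against IMSP, beside 25.6% of all genes called, and none in DP against SP. Without replicate 1 of IMSP 1 was lower. The 4 were E2f7 and E2f8, repressors without a pocket protein partner, E2f4, the E2F of p107 and p130, and Tfdp1, the shared dimer partner. E2f4 was −0.80 (adjusted p = 0.00934) and Tfdp1 −0.87 (adjusted p = 0.0122). Under sum scaling 3 factors of that list were lower and 1 higher after imatinib. Of 11 RB corepressors, 3 were lower after imatinib, a share near the 25.6% of all genes called, and none with vehicle. Suv39h1, a histone H3 methyltransferase, was −1.24 (adjusted p = 0.000636), Smarca4, an ATPase of the SWI/SNF remodeler, was −0.48 (adjusted p = 0.0124) and Hdac1, a histone deacetylase, was −0.48 (adjusted p = 0.0411), and under sum scaling 1 of the list was lower and 2 were higher. Smarca2, the other SWI/SNF ATPase, was higher in G0M+ cells over both treatments, at 0.58 (adjusted p = 0.0340), a call lost without replicate 1 of IMSP.

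Of 8 tested genes of CDK2 and its activators, 4 were lower in IMDP against IMSP, beside 25.6% of all genes called, and 1, Ccna2, in DP against SP, beside 2.26%. Under either scaling, either block or limma-voom 3 were lower in DP against SP. Ccna2, the S phase cyclin, was 2.39 ± 1.59 RPKM (SD, n = 3) in IMDP and 33.5 ± 4.91 in IMSP, a difference of −3.92 (adjusted p = 0.00134), and −3.02 (adjusted p = 0.0180) in DP against SP. The CDK subunits Cks1b and Cks2 were −1.97 (adjusted p = 0.000247) and −2.52 (adjusted p = 0.000312) after imatinib. Cdc25a, the phosphatase that activates CDK2, was at −0.57 (adjusted p = 0.0291) and was likewise named after its values were seen. Of 13 genes of G1 cyclin degradation, 4 were lower after imatinib, beside 25.6% of all genes called, 2 without replicate 1 of IMSP, and none under median or sum scaling. Dyrk1a, a kinase of cyclin D, was −0.56 (adjusted p = 0.00603), and the cullin Cul3 was −0.60 (adjusted p = 0.00583). The other two were Gsk3a, a kinase of cyclin D, and Rbx1, a cullin partner. Of 5 tested CDK inhibitors, 1 was lower in IMDP against IMSP, beside 25.6% of all genes called, and none differed in DP against SP. The gene called was Cdkn2d, the INK4 inhibitor p19, with 1.61 ± 0.322 RPKM (SD, n = 3) in IMDP and 3.44 ± 1.16 in IMSP (adjusted p = 0.0175). The call was not kept by either scaling or by limma-voom. Cdkn1b, which encodes p27 and shares its coding sequence with the G0M reporter, was at −0.16 (adjusted p = 0.607) after imatinib and 0.01 (adjusted p = 0.991) with vehicle.

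Of 21 tested transcription factors that act on D cyclin genes, 3 were higher and 2 lower in IMDP against IMSP, a share near the 25.6% of all genes called. In DP against SP 1 was lower, beside 2.26% of all genes called. After imatinib 4 were higher and 1 lower under median scaling, 6 higher and 1 lower under sum scaling, and 2 higher and 1 lower without replicate 1 of IMSP. In DP against SP median scaling gave 2 higher and 1 lower, sum scaling and limma-voom 1 higher and none lower, and the replicate block none. The list holds activators and their antagonists, and those named by the smallest adjusted p were mostly antagonists of MYC. Mxd4 was higher by 1.31 (adjusted p = 0.00683) and Mxd3 lower, at −1.98 (adjusted p = 0.00183), in IMDP. Tcf7l2, a partner of beta-catenin, was higher by 0.91 (adjusted p = 0.0259). The other genes called after imatinib, named after their values were seen, were Mycn (higher) and Sp1 (lower). Mxd1 was lower in IMDP than in DP, at −1.66 (adjusted p = 0.0268), with 3.06 ± 0.730 RPKM (SD, n = 3) in IMDP and 9.69 ± 0.685 in DP. That call was lost without replicate 3 of IMDP and with only the groups compared in the fit, where no gene passed. Over both populations Mxd1 was at −1.43 with imatinib (adjusted p = 0.00356), a comparison that runs with library order. The summed level of 10 proliferation markers was 37.5 to 93.5 RPKM in DP and 22.7 to 43.0 in IMDP, against 262 to 283 in SP and 243 to 339 in IMSP, a wide difference with either treatment, whereas the lists had 0 to 2 calls each in DP against SP. Its part in the list counts was not tested.

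**Figure D5:**
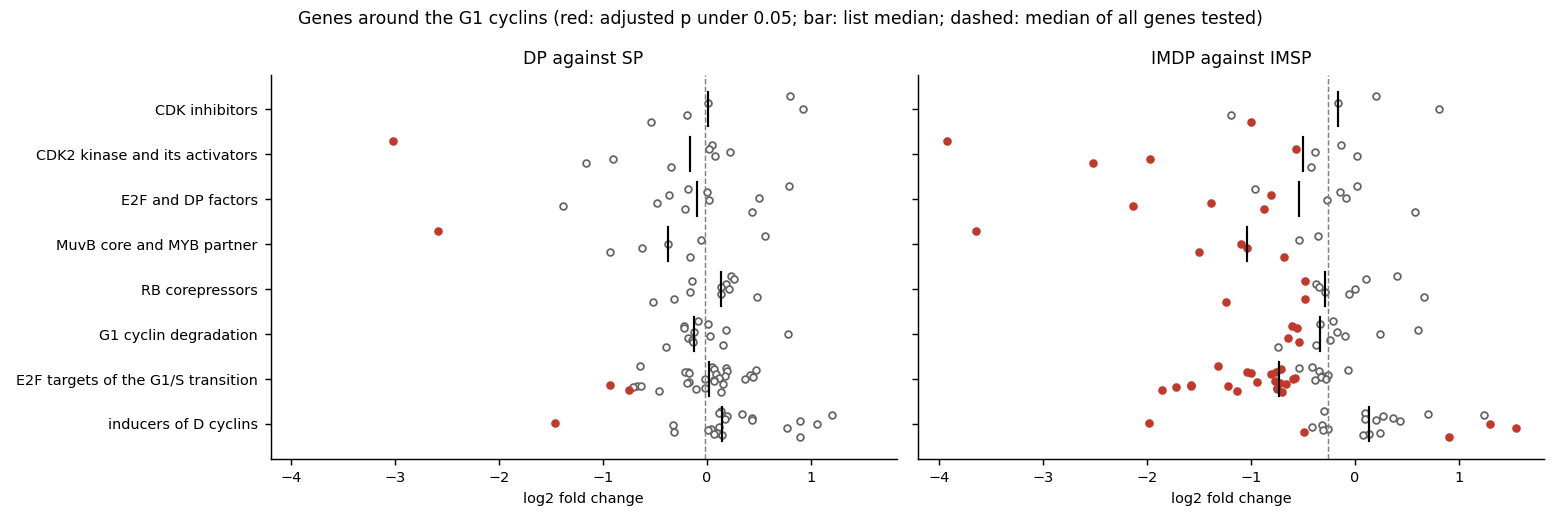
Log2 fold change of each tested gene of the 8 lists in DP against SP (left) and IMDP against IMSP (right), red where the adjusted p was under 0.05, with the median of each list (bars) and of all genes tested (dashed). Of the E2F targets, 20 of 30 are red on the right and 2 on the left, beside 25.6% and 2.26% of all genes.

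The genes most like each member across the 12 libraries were found by Pearson correlation of log2 values over all genes tested. Rbl1 was closest to Cbx5 (r = 0.987), a heterochromatin protein, and Sf3b3 (0.9804), a splicing factor. Cdk4 was closest to Nacc1 (0.983) and the translation initiation helicase Eif4a1 (0.983), and Cdk6 to Champ1 (0.969) and the histone variant gene H2afy (0.959). Ccnd1 was closest to Hsh2d (0.966) and Il16 (0.950), Ccne1 to Ifi30 (0.940) and Clptm1 (0.869), and Rb1 to the integrin gene Itgb2 (0.948) and Cd59a (0.921). Ccnd2 was closest to Trf (0.834) and Pan3 (0.828), Ccnd3 to Hist1h4b (0.904) and Rpgrip1l (0.884), and Rbl2 to Mdfic (0.899) and Lrrcc1 (0.892). For Ccne2, Kctd13 (0.865) was among the 2 closest genes. The 12 points share their groups and library scaling, and each is among the best of 10071 correlations, so the values are a description.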

How the data were processed

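RNA-seq of 12 libraries of 100 sorted cells was analysed, 3 each of DP, SP, IMDP and IMSP. The authors mapped the reads to GRCm38/mm10 and deposited 1 RPKM value per feature and library (48737 features). For mapping, the paper's methods give CLC Genomics Workbench whereas its reporting summary lists HISAT2 with featureCounts, and the authors' statistics used edgeR. Whether the deposited RPKM were normalized further is not given in the sources used here. RPKM divides by all reads of a library, so a library with fewer reads on genes has lower values throughout.

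Numbered copies of 1934 genes were summed. All 10072 genes that reached 1 RPKM in 3 or more libraries entered a limma 3.58.1 fit (R 4.3.3) of log2(RPKM + 0.1), which understates changes of low genes, with 4 group means and a variance trend. Tests were two-sided, and p-values were Benjamini-Hochberg adjusted over all genes (threshold 0.05). Whole reads were recovered from the RPKM steps for all 17735 features above 0 (tolerance 0.02 reads) for limma-voom, an alternative. PCR copies are not marked, so reads overstate precision. Scripts were tested on simulated data and ran in Python 3.11.15 with pandas 2.3.3, numpy 2.4.6 and matplotlib 3.10.9. Positions are from GENCODE M21.

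Same-numbered IMDP and IMSP libraries deviated together (correlations of 0.43, 0.65 and 0.46), a hint of pairing from the data that no label states. The main fit had no block, and blocks were tried as alternatives. Other alternatives changed the pseudocount, filter, scaling, copies, groups fitted or block, or left out 1 library. All members were named, with Mki67, defining cell markers, up to 4 genes per list by smallest adjusted p in G0M+ against G0M- over both treatments, and the 2 genes most correlated with each member. Cdkn1b, Cdc25a, Rbbp4, Mycn and Sp1 were added after their values were seen. A few genes that this rule selects are not reported here. Members and lists were chosen with earlier results of these data known.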

Additional observations from a re-analysis of the deposited data

How the results depend on the processing

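Of 70 member values (10 genes in 7 comparisons), 59 kept their side of the threshold under every alternative and 11 crossed it in at least 1, and no called value changed sign. In IMDP against IMSP, where 4 members passed, 2 passed under median scaling and 2 under sum scaling, and 1 to 4 when single libraries were left out. Leaving out replicate 1 of IMSP left Ccne1 alone, while the calls over all 10072 genes went from 2581 to 902. With the replicate block, set over all 4 groups, 3 passed, since Ccnd3 was lost, and the block changed no other call of a member. In DP against SP, where none passed, a block of neighbouring library numbers gave 2, Ccnd1 (0.95, adjusted p = 0.0451, range over alternatives 0.0451 to 0.971) and Rb1 (0.60, adjusted p = 0.0315, range 0.0315 to 0.520), as the calls over all genes went from 228 to 980. The same block gave 6 in IMDP against IMSP, adding Ccne2 (adjusted p = 0.00637, range 0.00637 to 0.406) and Cdk6 (0.0463, range 0.0463 to 0.907), where all genes called went from 2581 to 4446. Neighbouring DP and SP libraries deviated together (correlations of 0.50, 0.51 and 0.52), a hint from the data, whereas same-numbered ones did not (−0.19, −0.30 and −0.10). For imatinib against vehicle over both populations, leaving out single libraries gave 0 to 1 members, the 1 being Ccnd1 without replicate 3 of DP. At 7 to 434 reads for Ccnd1 and 35 to 141 for Ccne1, depth limits the precision of the low members. Why calls moved with the setting was not tested.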
